A study of Mus musculus with 10 samples.

Results

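The 6 genes described here encode the enzymes that set the phosphorylation of eIF2alpha: the kinases Eif2ak1 (HRI), Eif2ak2 (PKR), Eif2ak3 (PERK) and Eif2ak4 (GCN2), and the phosphatase regulatory subunits Ppp1r15a (GADD34) and Ppp1r15b (CReP). They were found as the gene probes whose RefSeq accession maps to these symbols, which gave 1 probe and 1 spot for each of the 6 members among 19752 named genes. Eif2ak3 had the single probe A_55_P2048744. All 6 probes were well above background on all 10 arrays, carried no outlier flag and were not saturated, so that every member entered every test.

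RNA was measured on single-colour Agilent mouse arrays, with 2 arrays in each of 5 groups. The muscle samples came from male C57BL/6J mice whose ages the labels do not give: untreated wild type animals, hSA::Fv2E-PERK transgenic animals injected with vehicle, and the same transgenic genotype injected with AP20187 at 1 ng/g. The other groups were C2C12 cells, a mouse myoblast line, that carried Fv2E-PERK, were kept for 3 days in 2% horse serum to differentiate, and received vehicle or AP20187 at 100 nM. Muscle and cells were collected 12 h after vehicle or AP20187. In Fv2E-PERK the kinase part of PERK is fused to a domain that AP20187 brings together, which switches the kinase on without stress in the endoplasmic reticulum. The name of the transgene points to the human skeletal actin promoter as its driver. There was no wild type group that received vehicle or AP20187 and no C2C12 group without Fv2E-PERK. The sources used here do not give which muscle was taken, nor whether the 2 samples of a group came from separate animals, cultures or clones. P-values therefore measure only the spread between these samples, which may be technical.

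eIF2 carries the initiator methionine tRNA to the ribosome, and phosphorylation of its alpha subunit turns it into an inhibitor of eIF2B, its own recycling factor. General protein synthesis then falls while mRNAs such as that of the transcription factor ATF4 are translated better, which is called the integrated stress response. Each kinase answers a different signal: HRI responds to haem shortage and mitochondrial stress, PKR to double-stranded RNA, PERK to unfolded protein in the endoplasmic reticulum and GCN2 to amino acid shortage. The phosphate is removed by protein phosphatase 1, which is guided to eIF2alpha by CReP at all times and by GADD34 when the stress response has induced it.

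The promoter sequence of Ppp1r15a is shown because this gene had the only large response to AP20187 among the 6, together with those of Eif2ak4, the other member that passed the test with AP20187 in muscle, and of Eif2ak3, the gene whose kinase domain the transgene holds. Each run is the 250 bases before a start site in RefSeq (GRCm38.p6), 5′ to 3′ on the gene's strand: chr7:45526269-45526518 on the minus strand for Ppp1r15a, chr2:118388862-118389111 on the plus strand for the second of 2 listed starts of Eif2ak4, and chr6:70844265-70844514 on the plus strand for Eif2ak3. Capitals mark matches to 3 motifs searched on both strands: the cAMP response element (TGACGTCA, or the shorter TGACG that overlaps it), the core of the C/EBP-ATF composite element (TGATGNAA) and the interferon-stimulated response element (GAAANNGAA).
Ppp1r15a: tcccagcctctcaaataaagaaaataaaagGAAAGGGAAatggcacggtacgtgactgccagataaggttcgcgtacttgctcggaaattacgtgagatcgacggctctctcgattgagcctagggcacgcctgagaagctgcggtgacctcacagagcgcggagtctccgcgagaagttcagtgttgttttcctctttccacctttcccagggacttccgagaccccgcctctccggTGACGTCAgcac
Eif2ak4: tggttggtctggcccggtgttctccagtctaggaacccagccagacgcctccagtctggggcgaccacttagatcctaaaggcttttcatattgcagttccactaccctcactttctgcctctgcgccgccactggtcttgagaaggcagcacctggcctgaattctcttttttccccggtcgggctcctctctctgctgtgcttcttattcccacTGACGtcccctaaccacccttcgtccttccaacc
Eif2ak3: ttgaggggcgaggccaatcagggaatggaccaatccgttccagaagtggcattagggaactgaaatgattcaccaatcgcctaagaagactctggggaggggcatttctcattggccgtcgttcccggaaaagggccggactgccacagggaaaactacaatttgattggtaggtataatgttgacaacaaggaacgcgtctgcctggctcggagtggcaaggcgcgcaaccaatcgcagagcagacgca
A whole cAMP response element began 12 bases before the Ppp1r15a start, a sequence that 1.55% of 32851 RefSeq promoter windows of this length held. The Ppp1r15a window also held 1 match to the interferon-stimulated element, 220 bases before the start (7.13% of windows), and the Eif2ak4 window held the short TGACG 34 bases before its start (17.8% of windows). The composite core, found in 3.45% of windows, matched in none of the 6 windows of the 5 members that the table lists (Eif2ak1, Eif2ak2, Eif2ak3, both starts of Eif2ak4, and Ppp1r15a). Those of Eif2ak1, Eif2ak2, Eif2ak3 and the first start of Eif2ak4 held no match to any of the 3. A match of letters is a description and no evidence of binding.

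Levels are given as log2 of the spot intensity relative to the 75th percentile of that array, and a change was called when limma's test across all genes gave a Benjamini-Hochberg adjusted p under 0.05. Between 41.0% and 53.1% of gene spots were well above background on an array. Wild type muscle was scanned in a session of its own, both transgenic muscle groups in another and all C2C12 arrays in the last, so that only the AP20187 comparisons lie within a session. Within C2C12, vehicle arrays sat in the first row of the slide and AP20187 arrays in the second, and 2.37% and 2.00% of gene spots on the AP20187 arrays carried an outlier flag against at most 0.376% elsewhere. Row and treatment cannot be told apart there. In transgenic muscle, vehicle arrays sat in column 1 of the slide and AP20187 arrays in columns 3 and 4, so that column and treatment cannot be told apart either. The labelled tissue was borne out by mature fibre markers, whose mean level was 8.77 to 9.26 on muscle arrays and 2.24 to 3.32 on C2C12 arrays.

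**Figure D1:**
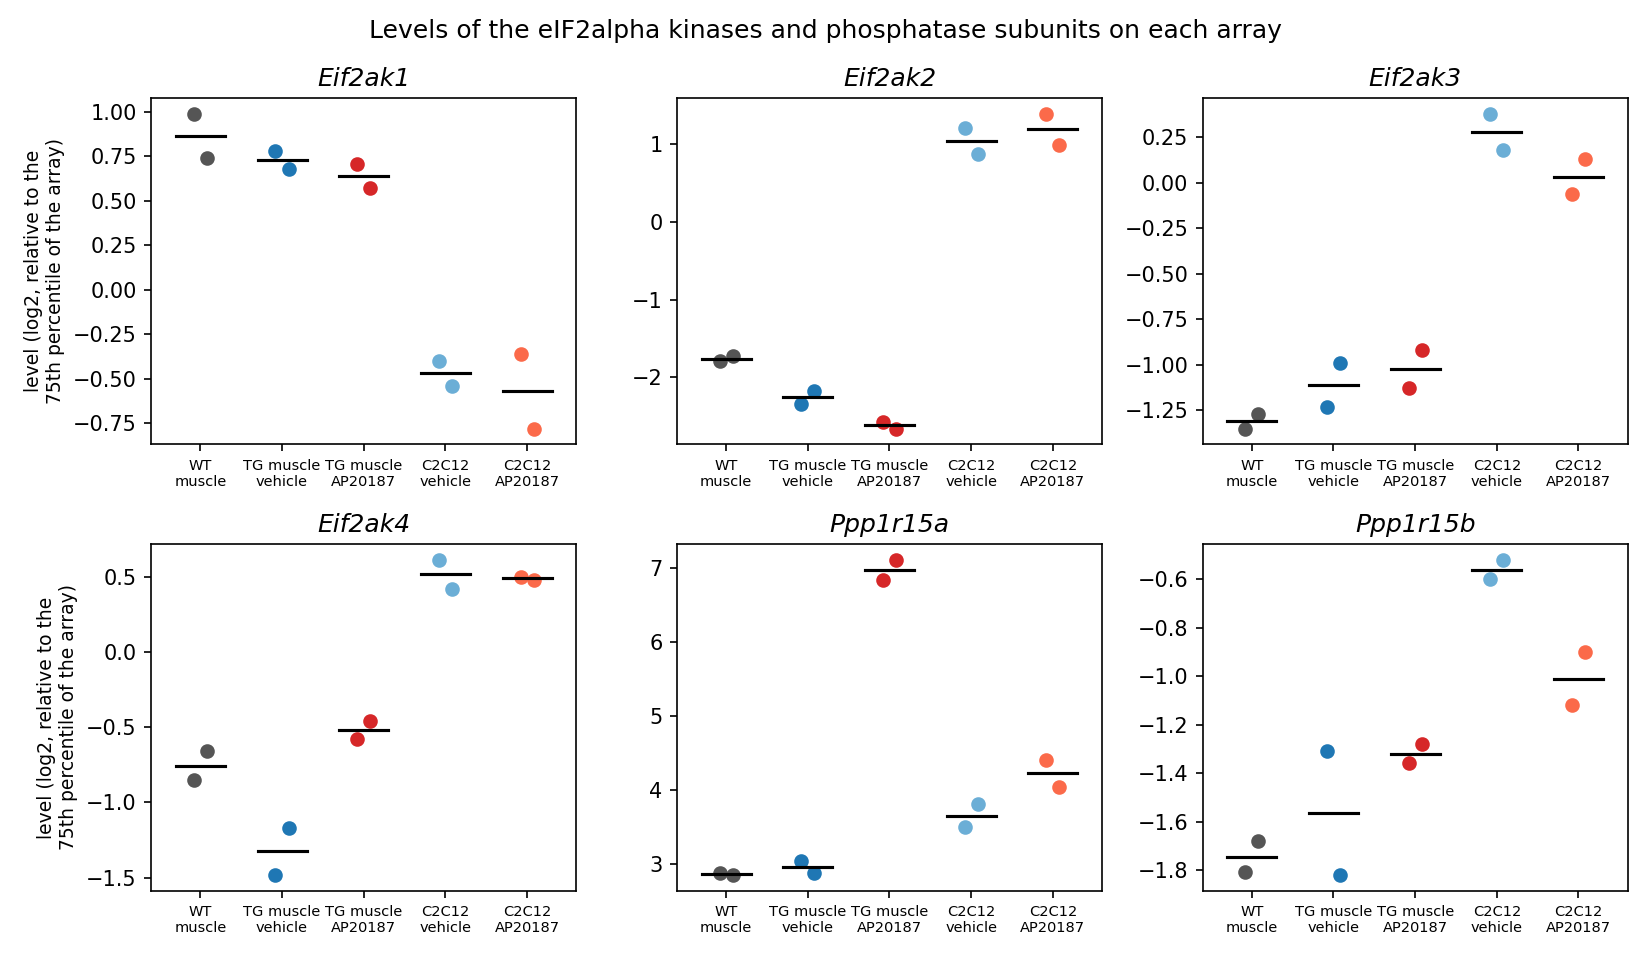
Level of each of the 6 genes (y axis, log2 intensity minus the array's 75th percentile, with a scale of its own in each panel) on the 2 arrays of each group (points), with the group mean as a line. Ppp1r15a stood at 6.84 and 7.11 in transgenic (TG) muscle after AP20187 and at 4.41 or less on the other 8 arrays, while Eif2ak1 was higher in muscle than in C2C12 and the other 3 kinases were lower.

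With AP20187 in transgenic muscle, 1 phosphatase subunit gene and 1 kinase gene rose. Ppp1r15a, whose product brings protein phosphatase 1 to eIF2alpha, rose 16.1-fold, and Eif2ak4, the gene for the amino acid sensor GCN2, rose 1.75-fold. The other 4 members, Eif2ak1, Eif2ak2, Eif2ak3 and Ppp1r15b, did not pass the test. Thus 2 of 6 members were called, both higher, where 29.3% of 13543 genes tested were called (14.3% higher and 15.0% lower). A share of 2 in 6 is near that background, but Ppp1r15a had the smallest p of all genes tested and the 4th largest rise.

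Ppp1r15a read 2.87 and 2.85 on the wild type arrays. After vehicle it read 3.04 and 2.88, and after AP20187 6.84 and 7.11. The AP20187 arrays thus lay far above both other muscle groups. On the linear scale of the scanner the same spot gave intensities of 1456 and 1219 after vehicle and 22202 and 28029 after AP20187. The log2 change against vehicle was 4.01 (SE 0.12, 95% interval 3.74 to 4.28, adjusted p = 1.20e-05 by limma). With only the 4 arrays of that scan session in the fit it was 4.01 as well (adjusted p = 1.70e-05).

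Eif2ak4 read -1.48 and -1.17 after vehicle and -0.58 and -0.46 after AP20187, against -0.85 and -0.66 in wild type. Both vehicle arrays were below all others in muscle, and the AP20187 arrays were above them. Its log2 change with AP20187 was 0.81 (SE 0.16, 95% interval 0.43 to 1.18, limma adjusted p = 0.0107).

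Eif2ak3 itself, the gene for PERK, read -1.23 and -0.99 after vehicle and -1.13 and -0.92 after AP20187, and these pairs overlap. Eif2ak1, the haem-regulated kinase, read 0.78 and 0.68 after vehicle and 0.71 and 0.57 after AP20187, which also overlap. Ppp1r15b, the constitutive partner of the phosphatase, read -1.31 and -1.82 after vehicle and -1.36 and -1.28 after AP20187. Its vehicle arrays differed by more than the 2 group means did. The 95% intervals of these 3 changes were -0.29 to 0.47 for Eif2ak3, -0.39 to 0.20 for Eif2ak1 and -0.23 to 0.71 for Ppp1r15b, so that changes of that size are not excluded. Eif2ak2, the sensor of double-stranded RNA, read -2.34 and -2.18 after vehicle and -2.57 and -2.66 after AP20187. Those pairs do not overlap, yet the change of -0.36 (SE 0.19) missed the threshold (limma adjusted p = 0.187).

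**Figure D2:**
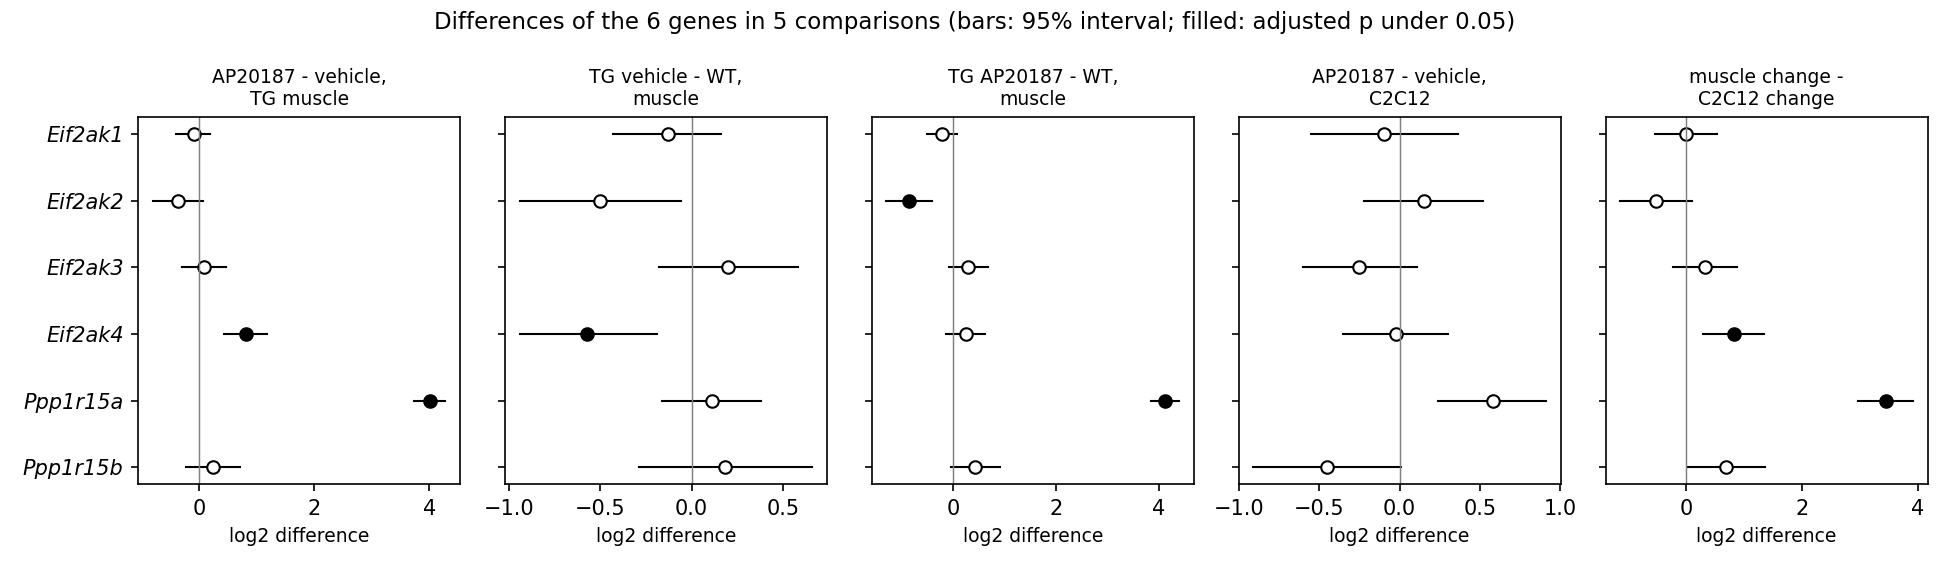
Log2 difference of each of the 6 genes (rows) in 5 comparisons (panels), with its 95% interval from limma as a bar and filled points where the adjusted p was under 0.05. With AP20187 in transgenic (TG) muscle Ppp1r15a lay at 4.01 and Eif2ak4 at 0.81, in C2C12 no point is filled, and in transgenic vehicle against wild type (WT) only Eif2ak4 is.

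The called changes of the partners of these enzymes were smaller in estimate than that of Ppp1r15a. Of the 3 catalytic subunits of protein phosphatase 1, Ppp1cc (-0.55, SE 0.10) and Ppp1ca (-0.32, SE 0.09) fell and Ppp1cb (-0.31, SE 0.15) did not pass. Among the 4 subunit genes of eIF2, Eif2s2 for the beta subunit fell (-0.39, SE 0.11), and Eif2s1, the gene for eIF2alpha, was at -0.13 (SE 0.16, limma adjusted p = 0.541). None of the 5 eIF2B genes passed in limma, with 0 at an unadjusted p under 0.05 and changes from -0.15 to 0.15. The median over all 13543 genes was -0.11.

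Of 13 tested genes that modulate the kinases, 1 rose and 2 fell (median 0.10). Over all genes tested 14.3% were called higher and 15.0% lower, so that these counts do not set the list apart. Hspa5, the chaperone BiP that holds PERK inactive, rose by 0.39 (SE 0.09). Prkra, which encodes the PKR activator PACT, was lower (-0.56, SE 0.13), as was the HSP90 co-chaperone gene Fkbp4 (-0.45, SE 0.13). In the list of other initiation factors, Eif5, which acts as the GTPase activator of eIF2, rose by 0.73 (SE 0.19), while Denr (-0.46, SE 0.13) and Mcts1 (-0.55, SE 0.13), partners in reinitiation, fell. The other 3 of those 6 did not pass.

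Genes downstream of eIF2alpha phosphorylation rose with AP20187 in muscle for 12 of the 16 listed, none fell, and the median log2 change was 1.26. Over all genes tested, 14.3% were called higher and 15.0% lower, with a median of -0.11. The list was chosen with earlier results of these data known, so that its count is no independent test. Those with the smallest p were the transcription factor genes Atf3 (3.46, SE 0.14) and Ddit3 (CHOP; 3.09, SE 0.13), the cytokine gene Gdf15 (1.40, SE 0.10) and the stress protein gene Nupr1 (3.02, SE 0.23). Each of these 4 estimates was below that of Ppp1r15a, and the differences between genes were not tested. Interferon-stimulated genes, a list included because PKR belongs to that response, had 0 of 20 called by limma (1 at an unadjusted p under 0.05, median 0.12).

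Markers of macrophages and leucocytes moved with AP20187 in muscle too. Of 10 tested, 9 fell, with a median of -0.94, and their mean level went from 1.02 and 1.21 after vehicle to 0.08 and 0.19 after AP20187, with Ptprc not above background there. Of 11 mature fibre markers 3 fell and none rose (median -0.30). Of 9 myoblast and new myotube markers, Myog (3.44, SE 0.24) and Myod1 (0.58, SE 0.12) rose. In that list Actc1 (-1.51, SE 0.23) and Myh8 (-0.52, SE 0.16) fell. Over all genes tested, 14.3% were called higher and 15.0% lower. The part of any of these markers in the changes of the 6 genes was not tested. In bulk tissue, fewer cells of a type and less RNA per cell cannot be told apart.

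The comparison of transgenic vehicle muscle with untreated wild type muscle gave another picture. Genotype, injection and scan session cannot be told apart in it. In vehicle-injected transgenic mice most of the stress response targets were above their wild type level, while Ppp1r15a stood at 2.96 ± 0.12 (SD, n = 2) against 2.86 ± 0.02. The difference of 0.11 (SE 0.12) had a 95% interval of -0.16 to 0.38 and did not pass (limma adjusted p = 0.505). On the log2 scale it ranged from -0.06 to 0.19 over the alternative settings, so that its sign is not settled. Among the 6 members 1 was called, Eif2ak4, and it was lower (-0.57, SE 0.16, limma adjusted p = 0.0278), where 38.3% of genes were called (25.7% higher and 12.6% lower). Leaving out either wild type array or the first vehicle array ended that call, with changes from -0.72 to -0.41 over the 6 arrays left out in turn.

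Of the 16 listed targets, 12 were higher and 2 lower in transgenic vehicle than in wild type, with a median of 1.98, also with the 2 bounded genes at their bound. Trib3, the gene of a pseudokinase that ATF4 and CHOP induce, read 0.10 and -0.41 in wild type and 7.53 and 7.66 after vehicle, a difference of 7.75 (SE 0.17). Asns, the asparagine synthetase gene, went from 0.65 and 0.30 to 6.03 and 6.23 (5.66, SE 0.15), and Psat1, an enzyme gene of serine synthesis, differed by 4.80 (SE 0.14). Gdf15 was not well above background on either wild type array and reached 3.72 and 3.63 after vehicle, at least 249-fold higher. Its limma adjusted p of 1.75e-08 comes from the fit on the background readings of wild type and does not test that bound. For such a gene the bound sets its bright group's mean against the lowest level well above background on each dim array, or the spot's own value where that is higher. Chosen after their values were seen, the 4 listed targets that were not higher were Ddit4 (-1.61, SE 0.21) and Vldlr (-0.55, SE 0.09), both called lower, and Chac1 and Cebpb, which did not pass. Chac1 was at 0.26 (SE 0.15) and Cebpb at -0.21 (SE 0.11), the 2 closest to Ppp1r15a in this comparison. Whether Ppp1r15a differed from the list was not tested.

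**Figure D3:**
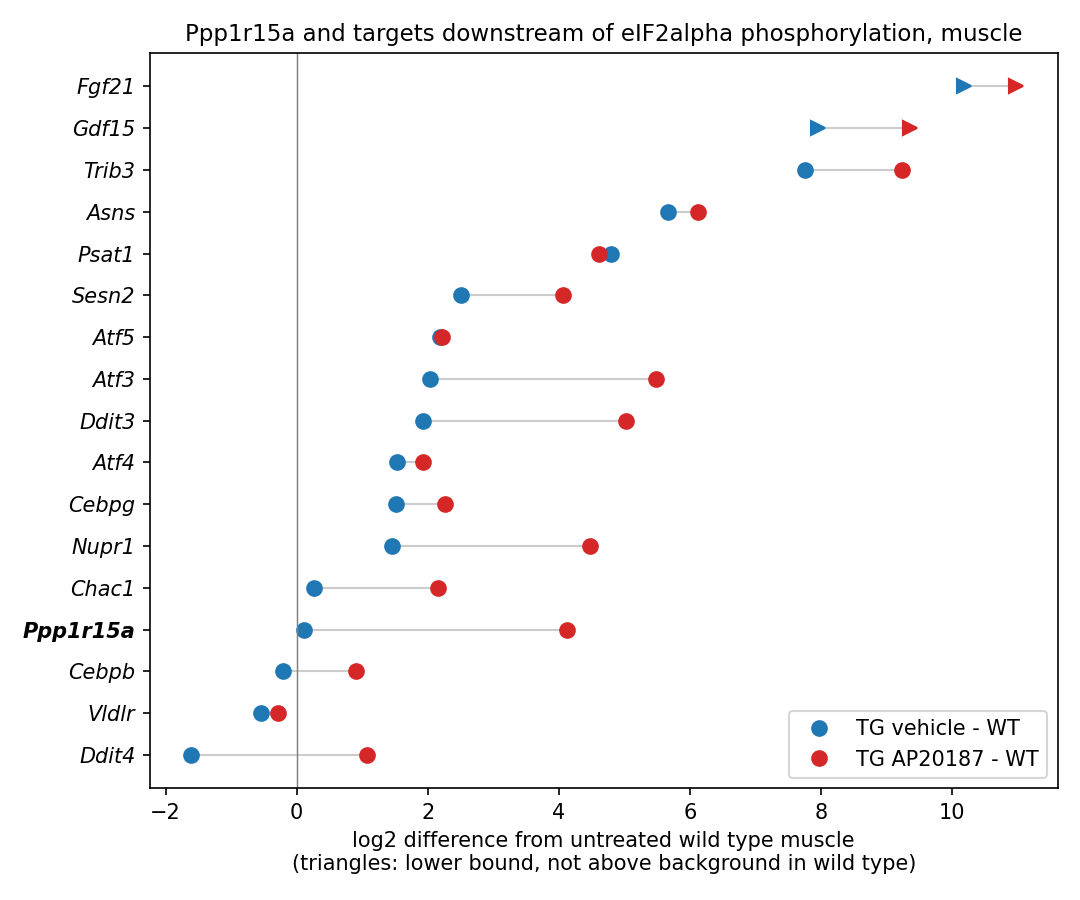
Log2 difference from untreated wild type (WT) muscle (x axis) of Ppp1r15a and the 16 listed targets (rows), for transgenic (TG) muscle after vehicle (blue) and after AP20187 (red), ordered by the vehicle value; triangles are lower bounds. Ppp1r15a moved from 0.11 to 4.12, whereas Trib3 stood at 7.75 already after vehicle and at 9.23 after AP20187.

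All 5 eIF2B genes, whose product is the enzyme that phosphorylated eIF2 blocks, were higher in transgenic vehicle than in wild type muscle, by 0.38 to 0.81 with a median of 0.51 against 0.09 over all genes. Eif2b3 had the largest difference (0.81, SE 0.09, limma adjusted p = 0.000772), reading 1.91 and 1.91 in wild type and 2.66 and 2.77 after vehicle. Eif2s1 for eIF2alpha (0.97, SE 0.16) and Eif2s2 (0.66, SE 0.11) were also higher, as was the phosphatase catalytic gene Ppp1ca (0.50, SE 0.09). Over all genes tested in this comparison, 25.7% were called higher and 12.6% lower. Of the kinase modulators 7 of 13 were higher and none lower, led by Hspa5 (0.95, SE 0.09) and Prkra (0.68, SE 0.13), which went opposite ways with AP20187. Of the other initiation factors 3 of 6 were higher, with Eif5 at 1.07 (SE 0.19), Eif2d at 0.59 (SE 0.12) and Eif2a at 0.40 (SE 0.11). The transgenic arrays were scanned in another session than the wild type ones and had received vehicle, so that genotype, injection and session cannot be told apart in this comparison.

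The other kinases did not pass in transgenic vehicle against wild type. Eif2ak2 read -1.79 and -1.73 in wild type against -2.34 and -2.18 after vehicle, pairs that do not overlap, with a difference of -0.50 (SE 0.19, limma adjusted p = 0.0737). Eif2ak3 read -1.35 and -1.27 in wild type, just under the vehicle arrays, a difference of 0.20 (95% interval -0.18 to 0.58). The position of this probe within PERK, inside or outside the kinase domain of the fusion, is not known from the files, so that whether its level includes the transgene cannot be told. Eif2ak1 differed by -0.13 (SE 0.13) and Ppp1r15b by 0.18 (SE 0.20). In the interferon-stimulated list 2 of 20 were higher, Irf9 (0.46, SE 0.13) and Bst2 (0.41, SE 0.10), and Ifit1 was lower (-0.98, SE 0.26).

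Against the same wild type arrays, transgenic muscle after AP20187 had 2 of 6 members called, 1 in each direction, where 52.2% of genes were called (29.6% higher and 22.6% lower). Ppp1r15a was 17.4-fold higher (4.12, SE 0.12). Eif2ak2 was 1.81-fold lower (-0.86, SE 0.19, limma adjusted p = 0.00698): its wild type mean was -1.76 ± 0.04, its vehicle mean -2.26 ± 0.11 and its AP20187 mean -2.62 ± 0.07 (SD, n = 2 each), and no 2 of these groups overlap. Its spot was dim in muscle, at 2.43 to 5.49 times the lowest intensity well above background on the array. The size of the change depended on the processing, from -1.04 to -0.26 over 21 alternatives, all of them called. Eif2ak4, which was lower after vehicle, stood at -0.52 ± 0.08 after AP20187 and -0.76 ± 0.14 in wild type, and the difference of 0.24 (SE 0.16) did not pass. This comparison shares its arrays with both others in muscle and is no further evidence for either.

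In differentiated C2C12 cells, AP20187 called none of the 6 members by limma, 1 of which (Ppp1r15a) had an unadjusted p under 0.05. The background was low as well: 0.482% of 11414 genes were called, 0.315% higher and 0.166% lower. That share depended on the scaling: more genes were called with quantile normalization or with the percentile over unflagged spots. Ppp1r15a read 3.49 and 3.81 after vehicle and 4.41 and 4.04 after AP20187. Both AP20187 arrays were above both vehicle arrays, and the change was 0.58 (SE 0.15, 95% interval 0.24 to 0.91, unadjusted p = 0.00315, limma adjusted p = 0.137). Over 18 alternative settings the change ran from 0.39 to 1.57 and the adjusted p from 0.000136 to 0.569, with 6 settings under the threshold. Quantile normalization gave 1.47, but it also put the median of all genes at 0.38, and the change relative to that median was 1.09 (0.63 in the setting used here). Leaving out the second AP20187 array gave 0.76 (adjusted p = 0.00634) and leaving out the first gave 0.39 (0.569).

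Ppp1r15b moved the other way in C2C12, from -0.60 and -0.52 after vehicle to -1.12 and -0.90 after AP20187. These pairs do not overlap, and the change of -0.45 (SE 0.21, limma adjusted p = 0.363) did not pass. The Ppp1r15b spot was dim after AP20187, at 2.65 and 3.02 times the lowest intensity well above background on the array. Eif2ak3 read 0.38 and 0.18 after vehicle and -0.06 and 0.13 after AP20187, again without overlap and without passing (-0.25, SE 0.16). Eif2ak1, Eif2ak2 and Eif2ak4 overlapped between the groups, with changes of -0.10, 0.15 and -0.02.

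Among the listed targets, 3 of 14 tested rose in C2C12: Fgf21, a hormone gene (1.99, SE 0.19), Atf3 (1.44, SE 0.15) and Trib3 (1.04, SE 0.15). The Trib3 spot of the second AP20187 array was flagged and left out, so that its value rests on 3 arrays. Asns lost the first AP20187 array in the same way. Chac1 could not be tested, because its spot was left out on both AP20187 arrays. The median of the 14 was 0.47, against -0.06 over all genes, and the changes ran from 0.02 to 1.99. Most of the 11 targets that were not called also had an unadjusted limma p under 0.05. Among these were Gdf15 (0.67, unadjusted p = 0.000705) and Nupr1 (0.65, unadjusted p = 0.000722). No gene of the other lists passed in limma. At an unadjusted p under 0.05 there were 2 of 3 eIF2 genes, 1 of 5 for eIF2B, 0 of 3 phosphatase catalytic genes, 1 of 14 modulators, 0 of 5 other initiation factors and 2 of 18 interferon-stimulated genes. Adipocyte markers moved as well: 4 of 5 rose, with a median of 3.45, and the mean level of the 6 listed went from -2.83 and -3.12 to 0.05 and -0.46. Of these 6, 0 were well above background on both vehicle arrays. Those tested thus entered only through the AP20187 arrays, and the sizes of their changes are uncertain. Myh4 (-1.83, SE 0.13) and Pvalb (-2.91, SE 0.15), 2 of 11 mature fibre markers, fell. The part of the adipocyte and fibre markers in the values of the 6 members was not tested.

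The change with AP20187 was larger in muscle than in C2C12 for Ppp1r15a, by 3.44 on the log2 scale (SE 0.21, 95% interval 2.96 to 3.91, limma adjusted p = 3.26e-05). This test of the difference itself called 2 of the 6 members, both higher in muscle, where 12.0% of 14094 genes were called (7.98% higher and 4.02% lower). The Ppp1r15a difference passed in all 24 alternative settings, with values from 2.22 to 3.62. Eif2ak4 was the other, at 0.83 (SE 0.24, limma adjusted p = 0.0467). That call ended in 19 of 24 alternatives, among them every one of the 10 that left out an array, where the values ran from 0.67 to 0.98, and the adjusted p ranged from 0.0217 to 0.510. The route and dose of AP20187 differed between mice and cells, and these cannot be told apart from tissue and culture.

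Of the 15 listed targets tested, the difference was called for 6, all with the higher change in muscle. The 4 with the smallest p were Ddit3 (2.56), Atf3 (2.02), Ddit4 (2.64) and Nupr1 (2.37). For Gcn1, whose product activates GCN2 at the ribosome, the difference was called at 0.82 (limma adjusted p = 0.0393), although its change passed neither in muscle (0.55, adjusted p = 0.0504) nor in C2C12 (-0.26). For Ppp1cc (-0.61) and Eif2s2 (-0.68) the difference was called with the lower change in muscle.

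**Figure D4:**
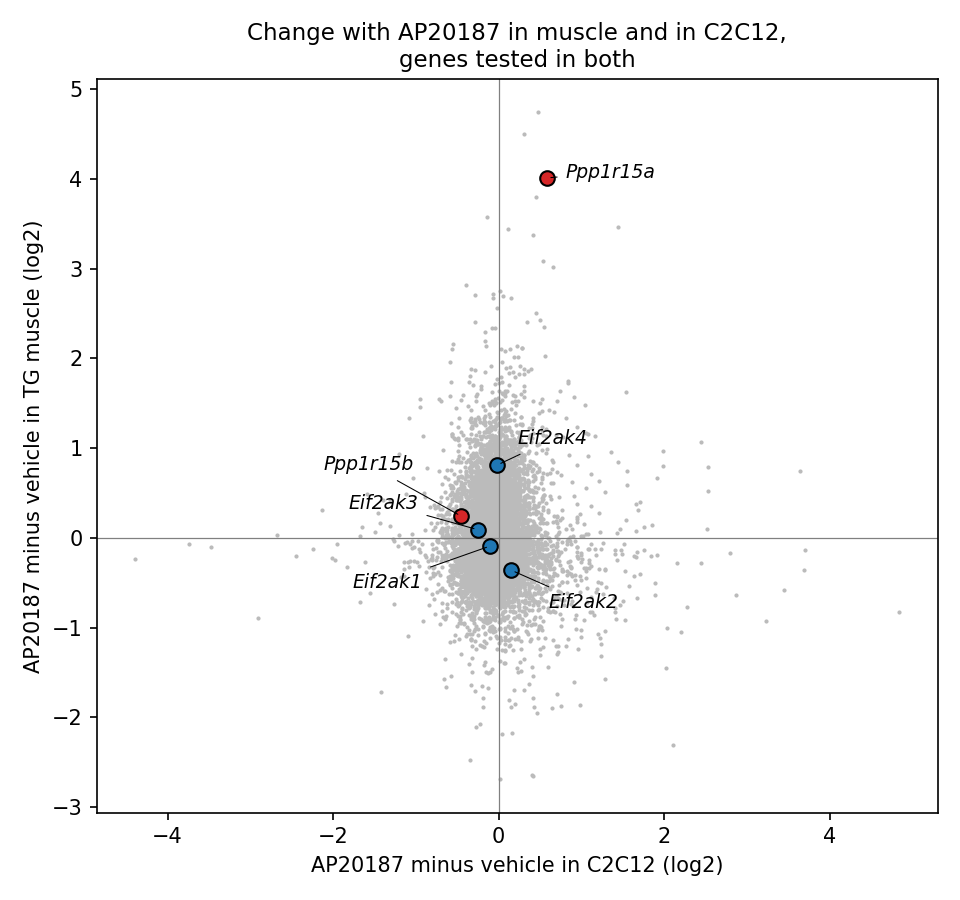
Log2 change with AP20187 in transgenic (TG) muscle (y axis) against that in C2C12 (x axis) for the 10663 genes tested in both (grey), with the kinase genes in blue and the phosphatase subunits in red. Ppp1r15a lay at 4.01 in muscle and 0.58 in C2C12, and the other 5 members lay between -0.36 and 0.81 in muscle and between -0.45 and 0.15 in C2C12.

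Tissue and culture differed for all 6 genes. Between transgenic vehicle muscle and C2C12 vehicle, both carrying Fv2E-PERK, 6 of 6 members were called, which says little where 78.7% of 14292 genes were (40.2% higher and 38.5% lower in muscle). Eif2ak1 was 2.30-fold higher in muscle (1.20, SE 0.17), and the other 5 were lower. Eif2ak2 had the largest difference, 9.84-fold (-3.30, SE 0.20): it read 1.21 and 0.87 in C2C12 vehicle against -2.34 and -2.18 in muscle. Its spot was dim in that muscle, at 3.05 and 3.18 times the lowest intensity well above background on the array. Over 24 alternative settings the log2 difference ran from -3.54 to -2.15, so that its size is uncertain. Eif2ak4 was 3.57-fold lower in muscle, Eif2ak3 2.62-fold, Ppp1r15b 2.00-fold and Ppp1r15a 1.61-fold. Levels across tissue and culture were set by 1 scaling over unlike RNA, and scan session and sample kind cannot be told apart here.

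Interferon-stimulated genes, the response to which PKR belongs, were lower in muscle for 18 of 20 tested, with a median of -2.70 against 0.04 over all genes. Isg15 (-4.81), Xaf1 (-3.25), Ddx58 (-3.34) and Ifit3 (-3.75) had the smallest p. Of the 14 kinase modulators 5 were higher in muscle and 6 lower. Those with the smallest p included Oma1 (3.32) and Dele1 (2.19), which relay mitochondrial stress to HRI, and Hspb8 (2.65), all higher in muscle, and the chaperone gene Hsp90aa1 (-2.42), which was lower. All 5 eIF2B genes (0.38 to 1.53) and all 3 phosphatase catalytic genes (0.43 to 1.62) were higher in muscle.

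Ordered by group mean, the kinases fell into a muscle block and a C2C12 block. Eif2ak1 ran from -0.57 ± 0.29 (C2C12 AP20187) and -0.47 ± 0.10 (C2C12 vehicle) to 0.64 ± 0.10, 0.73 ± 0.07 and 0.86 ± 0.18 in AP20187, vehicle and wild type muscle, and neighbours within each block overlapped. Eif2ak3 ran from -1.31 ± 0.06, -1.11 ± 0.17 and -1.02 ± 0.15 in wild type, vehicle and AP20187 muscle to 0.04 ± 0.14 and 0.28 ± 0.15 in AP20187 and vehicle C2C12, with overlap only between the transgenic groups. Ppp1r15b ran from -1.75 ± 0.09 in wild type muscle to -0.56 ± 0.06 in C2C12 vehicle (SD, n = 2 throughout), and its 3 muscle groups overlapped in turn. Over all 10 arrays Ppp1r15a spanned 19.2-fold and Eif2ak2 16.6-fold, while Ppp1r15b spanned 2.46-fold.

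Across the 10 arrays the levels of Eif2ak2, Eif2ak3 and Eif2ak4 correlated with each other at Pearson r of 0.90 to 0.93 and with Eif2ak1 at -0.97 to -0.91, and Ppp1r15a correlated with the 4 kinases at -0.23 to 0.15. Ppp1r15b correlated at 0.76 to 0.89 with Eif2ak2, Eif2ak3 and Eif2ak4 and at -0.86 with Eif2ak1. These are descriptions over 5 groups of 2 in which muscle and C2C12 stand apart, and the kinase and Ppp1r15b values follow that contrast. Among 9245 named genes above background on all arrays, the profile most like that of Ppp1r15a was Riox1 (r = 0.9951), followed by Nop14 (0.9801) and Pheta1 (0.9697). The closest to Eif2ak3 were Septin10 (0.9954), Hdac1 (0.9930) and Sf3a3 (0.9921), to Eif2ak4 Gtf3c4 (0.9931), Pan3 (0.9906) and Thoc2l (0.9897), and to Eif2ak2 Anln (0.9969), Krtap1-4 (0.9969) and H2-Q4 (0.9967). Eif2ak1 was closest to Cd37 (0.9960), Sars2 (0.9941) and Slc28a1 (0.9926), and Ppp1r15b to Wdr35 (0.9671), Fubp3 (0.9577) and Pcgf2 (0.9577).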

How the data were processed

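Per the file headers, the deposited scanner files hold spot intensity on a linear scale (gProcessedSignal), from which Agilent Feature Extraction 10.7.1.1 had subtracted background. The authors also deposited log2 values, in which array-to-array differences matched the scanner files at a correlation of 0.9998 or more. Their baseline is unknown (column medians from -0.58 to 0.80), and they served as an alternative. Each array received label made from 150 ng of RNA, per the labels' protocols. Spots numbered 62976, of which 3671 controls were left out. The values tested were log2 intensity minus the 75th percentile of the gene spots of that array, with outlier-flagged spots then left out. RefSeq accessions named 26056 of 55681 probes through GRCm38.p6 tables, also the source of the promoter sequences. The brightest probe stood for a gene, which was tested if both arrays of 1 or more groups put it well above background. limma 3.58.1 in R 4.3.3 (lmFit, eBayes with a variance trend) was fitted on 6 muscle arrays (3 residual degrees of freedom), 4 C2C12 arrays (2) or, for the tissue contrasts, all 10 (5). The fits were tested on simulated data. A fit on all probes instead of 1 per gene gave the members the same changes and called the same members, except Eif2ak4 in the difference between muscle and C2C12 (adjusted p = 0.0674).

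Named are the 6 members, per list and comparison at most the 4 called genes with the smallest p (any measured gene of the eIF2 and phosphatase catalytic lists), and per member the 3 most correlated genes. Members and lists were chosen with earlier results of these data known. The files hold no mean spot signal, so that the normexp alternative used the median signal. Sample numbers are shared between groups, but the labels do not say that they mark a common source. The precision is limited by 2 arrays per group.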

Additional observations from a re-analysis of the deposited data

Results flagged for a closer look

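The change with AP20187 differed between muscle and C2C12 for 2 of the 6 genes, by the test of the difference itself. That test called 12.0% of 14094 genes. For Ppp1r15a the muscle change exceeded the C2C12 change by 3.44 on the log2 scale (limma adjusted p = 3.26e-05), with both AP20187 arrays above both vehicle arrays in each system. For Eif2ak4 it did so by 0.83 (limma adjusted p = 0.0467): both AP20187 arrays were above both vehicle arrays in muscle, and the groups overlapped in C2C12. The Eif2ak4 call is not firm: it ended in 19 of 24 alternatives and in the fit on all probes (limma adjusted p = 0.0674).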

How the results depend on the processing

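Of 774 recomputed changes of the 6 genes over the 6 comparisons, 698 kept their direction and their side of the threshold, 25 lost a call, 15 gained one and 36 turned sign. With AP20187 in muscle Ppp1r15a (3.79 to 4.15) and Eif2ak4 (0.45 to 0.96) were called in all 21 alternatives. The causes of the changes below were not tested. Leaving out 1 array in turn gave, with AP20187 in muscle, 1869 to 3273 called genes, Eif2ak3 -0.04 to 0.21 and Ppp1r15b -0.01 to 0.50. For transgenic vehicle against wild type it gave 3149 to 5199 genes, 0 to 1 members, Eif2ak4 -0.72 to -0.41 and Ppp1r15b -0.07 to 0.44. In C2C12 it gave 13 to 235 genes, 0 to 1 members, Eif2ak1 -0.30 to 0.11, Eif2ak2 -0.05 to 0.35, Eif2ak4 -0.12 to 0.08 and Ppp1r15a 0.39 to 0.76. For the difference between muscle and C2C12 it gave 935 to 1676 genes, 1 member each time, Eif2ak1 -0.20 to 0.21 and Eif2ak4 0.67 to 0.98. A lone array left in a group was assumed to vary like the others.

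For transgenic vehicle against wild type, Ppp1r15a became -0.05 with quantile normalization, -0.06 with the percentile over probes detected on all arrays and 0.00 with the median of tested genes centred. Eif2ak4 lost its call with normexp and quantile (-0.24) and without the filter on dim probes (-0.57), leaving 0 members. Eif2ak2 gained one, making 2 members, with the percentile over detected probes (-0.66), without the variance trend (-0.50), with the authors' value table (-0.52) and with median centring (-0.61). For transgenic AP20187 against wild type, Ppp1r15b (0.53, quantile), Eif2ak3 (0.30, normexp and quantile) and Eif2ak1 (-0.38, detected probes; -0.40, median centring) gained a call. Against C2C12, Ppp1r15a in vehicle muscle lost its call with the value table (-0.67, adjusted p = 0.0575).

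In C2C12 the 55 called genes became 4661 with quantile, 3975 with normexp and quantile, 360 with normexp and the 75th percentile, 463 with detected probes, 137 without the dim filter, 35 with every array above background, 126 with the mean over probes, 31 without the trend, 21 with the value table, 139 with all 10 arrays in the fit, 219 with the percentile over unflagged spots and 160 with median centring, the last pair chosen after seeing the data. Ppp1r15a was called at 1.47 (quantile, which also called Eif2ak2 at 0.56, making 2 members), 1.57 (normexp and quantile), 0.82 (detected probes), 0.78 (unflagged spots) and 0.73 (median centring), 1 member each in the last 4. In the same order Eif2ak1 turned to 0.04, 0.12, 0.15, 0.11 and 0.06 and Eif2ak4 to 0.29, 0.31, 0.23, 0.19 and 0.13. With normexp and the 75th percentile they were 0.00 and 0.04. Eif2ak3 turned to 0.00 (quantile, detected probes) and 0.11 (normexp and quantile).

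For muscle minus C2C12, the 1691 called genes became 3859 (quantile), 4084 (normexp and quantile), 3179 (normexp, 75th percentile) and 2758 (detected probes). Eif2ak4 lost its call, leaving 1 member, at 0.46, 0.14, 0.43 and 0.58 in that order, at 0.62 (unflagged spots), 0.61 (median centring), and at 0.83 without the dim filter, without the trend and with only the 4 groups compared. Eif2ak1, 0.00 here, became -0.13, -0.22, -0.09 and -0.24, then -0.20 and -0.21. Among called genes the share higher also moved with scaling: from 48.9% to 63.3% with AP20187 in muscle, from 67.1% to 52.8% for transgenic vehicle against wild type, from 65.5% to 98.5% in C2C12 and from 66.5% to 15.2% for the difference, each with quantile normalization.

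Replicate numbers were shared between groups, and the deviations of same-numbered arrays correlated at 0.19 to 0.35 in muscle and 0.02 in C2C12. With the replicate number as a block, 5593 genes were called with AP20187 in muscle and 104 in C2C12, and Ppp1r15a in muscle kept 4.01 (adjusted p = 8.99e-05); no call of a member changed. A session block could not be fitted beside the groups.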
